A study of Homo sapiens with 8 samples.

Results

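*HDAC1* and the genes of 9 of its partner proteins were followed through the H3K27ac peak lists of 2 derivatives of MIA PaCa-2, an established epithelial line from a pancreatic carcinoma. The 10 genes are *HDAC1*, *HDAC2*, *SIN3A*, *SIN3B*, *RCOR1*, *MTA1*, *MTA2*, *CHD4*, *RBBP4* and *RBBP7*, out of 19974 protein-coding genes with a listed position, and they were taken by name. Every deposited peak that overlapped one of these genes or the 20 kb on either side of it was taken as a peak of that gene. This gave 39 peaks of 25045 in MP2_HDAC1_OE and 39 of 22569 in MP2_NTC.

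Both lines carry the lentiMPHv2 plasmid, which encodes the MS2-p65-HSF1 activator, together with lentiSAMv2, which carries an sgRNA and the Cas9-based activator that it guides. In MP2_HDAC1_OE the sgRNA targets *HDAC1*, and in MP2_NTC it is a non-targeting control. The labels name no drug or other agent in these groups. H3K27ac was precipitated in 2 samples of each line, and 2 further samples of each line were made without antibody as controls. The authors deposited 1 peak list per line, in which both samples are pooled, so no value below has a replicate error and no difference between the lines could be tested. Depth is unknown because the lists hold no read counts. Each line is a single stable derivative, so differences between the derivatives and an effect of *HDAC1* activation cannot be told apart. At *HDAC1* itself, acetylation that comes with the recruited activator and acetylation that follows from more HDAC1 cannot be told apart either. Of 6 markers looked at as a check of the line, the epithelial keratin genes *KRT8*, *KRT18* and *KRT19* and the mesenchymal gene *VIM* had a peak in both lists within 2 kb of the gene, and the epithelial adhesion genes *EPCAM* and *CDH1* had none in either. The strongest peaks of *KRT8* and *KRT18* had the same rank in each list. The *KRT19* peak of MP2_NTC was weak, above only 6.86% of the peaks of its list, against 42.8% for the strongest one in MP2_HDAC1_OE.

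HDAC1 and HDAC2 are closely related enzymes that remove acetyl groups from histones. They do not bind DNA by themselves and work inside corepressor complexes. SIN3A and SIN3B are the scaffolds of the SIN3 complexes. CHD4 is the ATP-driven nucleosome remodeller of the NuRD complex, and MTA1 and MTA2 are the NuRD subunits that hold the deacetylases. RCOR1 is the CoREST scaffold and joins the deacetylases to the histone demethylase KDM1A. RBBP4 and RBBP7 are histone-binding proteins that SIN3 and NuRD both contain. H3K27ac, acetylation of histone H3 at lysine 27, is found at active promoters and enhancers and is removed by deacetylases. The comparison asked whether H3K27ac at the partner genes differed between the lines along with that at the activated gene.

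The promoters of *HDAC1*, *HDAC2*, *RBBP4* and *RBBP7* are shown as those of the activated gene, of its closest relative, and of the 2 histone-binding partners, at which, as at *MTA1* and *HDAC1*, MP2_NTC had a promoter peak that MP2_HDAC1_OE lacked. Each sequence runs 5′ to 3′ on the strand of the gene, from 250 bases before to 50 bases after an annotated start (RefSeq, GRCh38.p14). Capitals mark GC boxes (GGGCGG) and CCAAT boxes (CCAAT), searched on both strands.
HDAC1, chr1:32291833-32292132, plus strand: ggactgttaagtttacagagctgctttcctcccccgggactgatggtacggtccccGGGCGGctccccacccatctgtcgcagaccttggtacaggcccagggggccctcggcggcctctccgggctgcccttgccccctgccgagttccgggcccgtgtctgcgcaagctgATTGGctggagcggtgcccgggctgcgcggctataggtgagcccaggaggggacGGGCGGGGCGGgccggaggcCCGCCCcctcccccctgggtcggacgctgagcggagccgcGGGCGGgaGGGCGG
HDAC2, chr6:113971099-113971398, minus strand: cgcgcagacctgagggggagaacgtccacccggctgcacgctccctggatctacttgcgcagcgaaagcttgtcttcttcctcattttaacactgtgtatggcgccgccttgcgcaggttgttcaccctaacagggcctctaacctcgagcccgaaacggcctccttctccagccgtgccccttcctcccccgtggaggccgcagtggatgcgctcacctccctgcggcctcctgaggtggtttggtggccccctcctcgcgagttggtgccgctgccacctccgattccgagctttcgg
RBBP4, chr1:32650958-32651257, plus strand: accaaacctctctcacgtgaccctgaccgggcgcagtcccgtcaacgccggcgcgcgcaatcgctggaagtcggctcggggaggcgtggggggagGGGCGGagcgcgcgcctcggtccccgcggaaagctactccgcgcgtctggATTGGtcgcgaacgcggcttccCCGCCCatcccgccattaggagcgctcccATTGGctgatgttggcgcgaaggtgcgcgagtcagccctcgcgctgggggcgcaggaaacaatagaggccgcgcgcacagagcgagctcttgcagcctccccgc
RBBP7, chrX:16870313-16870612, minus strand: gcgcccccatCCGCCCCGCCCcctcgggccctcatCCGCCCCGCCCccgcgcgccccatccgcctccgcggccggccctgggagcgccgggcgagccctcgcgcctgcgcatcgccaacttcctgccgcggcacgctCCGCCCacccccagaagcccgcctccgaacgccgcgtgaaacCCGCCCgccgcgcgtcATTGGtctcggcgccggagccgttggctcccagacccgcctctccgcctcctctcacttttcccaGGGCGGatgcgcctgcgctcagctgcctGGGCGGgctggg

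The *HDAC1* stretch held 6 GC boxes, some of which share bases, and 1 CCAAT box, and 73.7% of its bases were G or C. Peaks covered 59 of its 300 bases in MP2_HDAC1_OE and 68 in MP2_NTC, at the upstream end in both. The *HDAC2* stretch held no GC box and no CCAAT box in these letters, with a GC content of 64%, and all 300 bases lay under peaks in both lines. *RBBP4* had 2 boxes of each kind, and its peaks covered 77 bases in MP2_HDAC1_OE and 85 in MP2_NTC. *RBBP7* had 8 GC boxes and 1 CCAAT box, with 5 bases under peaks in MP2_HDAC1_OE and 63 in MP2_NTC. RefSeq lists another start for each of these 2 genes, not shown here. At that of *RBBP7*, peaks covered 156 bases in MP2_HDAC1_OE and all 300 in MP2_NTC. At that of *RBBP4*, they covered 0 bases in MP2_HDAC1_OE and 156 in MP2_NTC. A GC box was present in 45.0% and a CCAAT box in 34.6% of 35116 promoters of the same length.

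The unit of the peak values is a signal that the peak caller gave each peak, and its scaling may differ between the lists. In MP2_HDAC1_OE the median signal was 46.5, with a lowest value of 11.0 and a highest of 185. In MP2_NTC it was 49.3, between limits of 11.7 and 220. Each peak was therefore placed within its own list, as the percentage of peaks in that list with a lower signal, called its percentile below. A rank difference is the percentile in MP2_HDAC1_OE minus that in MP2_NTC, in percentile points. The promoter window of a gene ran from 2 kb before to 1 kb after its 5′ end, and the strongest peak there stood for the promoter. A rank difference of 20 points or more was counted as higher or lower. A region unique to one line is a merged peak region with no peak of the other line. Some intervals are listed more than once, with a signal for each summit. For summed signals, all signals in the promoter window were added, with such an interval counted each time it is listed. The sum was ranked among the gene promoters with a peak in that list, not among its peaks, so its points are on another scale. On it 23.7% of genes were higher by 20 points and 23.2% lower, against 16.3% and 12.7% between strongest peaks.

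*HDAC1*, the gene targeted by the sgRNA, had the highest rank difference between strongest promoter peaks of the 7 genes with promoter peaks in both lists, though *MTA2* was higher with summed signals. Its gene spans chr1:32292083-32333626 on the plus strand. The strongest promoter peak of MP2_HDAC1_OE, at chr1:32291469-32291891 with its summit 497 bp upstream of the 5′ end, had a signal of 91.6 and stood at the 93.9 percentile of its list. The same interval is listed again with a summit 280 bp upstream, a signal of 36.7 and a percentile of 30.0. MP2_NTC had a peak over the same site, at chr1:32291457-32291900 with its summit 461 bp upstream, a signal of 44.1 and a percentile of 40.4. The site was thus acetylated in both lines and ranked near the top of the list in MP2_HDAC1_OE alone.

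A second promoter peak of MP2_NTC lay just inside the gene at chr1:32292210-32292433, with a signal of 46.7 and a percentile of 45.2, and no peak of MP2_HDAC1_OE overlapped it. Taking the strongest peak in each list, the rank difference at the *HDAC1* promoter was 48.7 points, and at the shared site it was 53.5 points. Over the 5905 protein-coding genes with promoter peaks in both lists the median difference was 1.25 points, with an SD of 21.5 points across genes, and 2.40% of these genes had a difference as high as that of *HDAC1*. At the shared site the share was 1.63% of 5766 genes. The deposited score, which follows the authors' measure of agreement between samples and reaches at most 1000, was 1000 for the MP2_HDAC1_OE peak and 596 for the MP2_NTC peak at this site. With all promoter signals of a gene summed, the difference was 23.5 points, below the 57.4 points of *MTA2*.

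**Figure D1:**
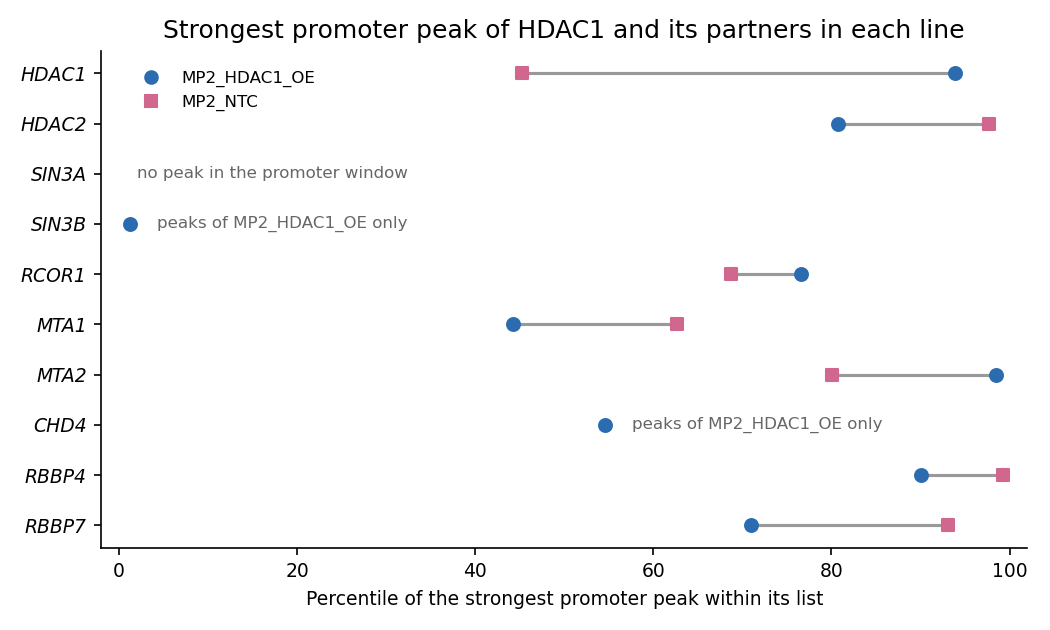
Percentile of the strongest promoter peak of each gene within its list (x axis, percent of peaks in that list with a lower signal), for MP2_HDAC1_OE (circles) and MP2_NTC (squares), with a line joining both where both have a peak. *HDAC1* has the longest line, from 45.2 in MP2_NTC to 93.9 in MP2_HDAC1_OE, while *HDAC2*, *MTA1*, *RBBP4* and *RBBP7* rank lower in MP2_HDAC1_OE, *SIN3B* and *CHD4* have a peak in MP2_HDAC1_OE only, and *SIN3A* has none in either.

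Beyond the promoter, the *HDAC1* window held 3 further regions. Inside the gene, about 6 kb from its 5′ end, 2 overlapping peaks of MP2_HDAC1_OE made a unique region at chr1:32297810-32298874, with signals of 35.8 and 22.8 at percentiles of 28.6 and 13.2. These are low ranks, and both had a score of 562. Past the 3′ end, a region unique to MP2_NTC at chr1:32335243-32336151 had signals of 35.2 and 47.9 at percentiles of 24.1 and 47.4. It lies at the promoter of *MARCKSL1*, the gene of a MARCKS-like actin-binding protein. Farther out, a region of both lines at chr1:32350410-32352698 reached a signal of 48.1 at the 53.1 percentile in MP2_HDAC1_OE and of 69.5 at the 76.8 percentile in MP2_NTC. All of its summits lie within 575 bp of a listed start of another gene, *LOC105378629*. This region ranked 23.7 points lower in MP2_HDAC1_OE, so the higher rank at the *HDAC1* promoter did not extend over its whole window.

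**Figure D2:**
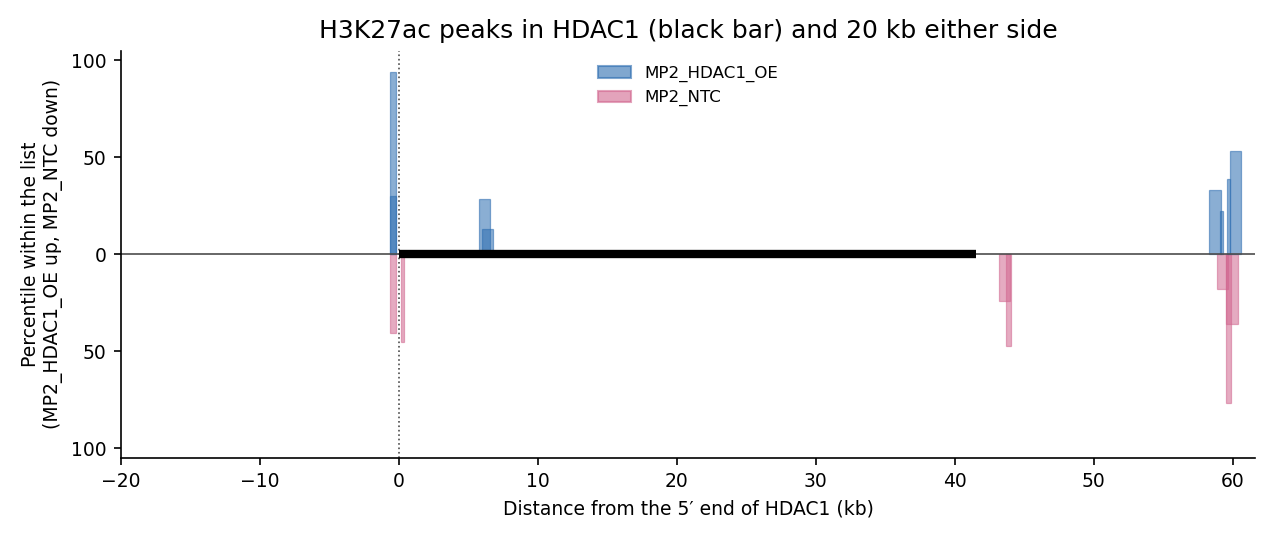
H3K27ac peaks in *HDAC1* and 20 kb on either side, by distance from the 5′ end in kb (x axis, the gene as a black bar), with bar height the percentile within the list, upward for MP2_HDAC1_OE and downward for MP2_NTC. The MP2_HDAC1_OE peak just upstream of the gene reaches 93.9, against 40.4 below it in MP2_NTC, while the region past the 3′ end that both lines share reaches 76.8 in MP2_NTC and 53.1 in MP2_HDAC1_OE.

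*HDAC2* encodes the other deacetylase of the same complexes and lies at chr6:113933028-113971148 on the minus strand. All of its peaks fell in 1 promoter region of both lines at chr6:113970747-113972011. MP2_NTC had a peak with a summit 170 bp inside the gene, a signal of 122 and a percentile of 97.7, and another with a summit 66 bp upstream, a signal of 85.1 and a percentile of 87.6. MP2_HDAC1_OE had a peak with a summit 119 bp upstream, a signal of 68.7 and a percentile of 80.7, and a weaker one 454 bp upstream with a signal of 27.3 at the 18.6 percentile. The rank difference was -17.0 points, under the 20 points counted, and 15.8% of the 5905 genes had one as low. The promoter was among the stronger peaks of both lists, and its direction was opposite to that of *HDAC1*. With summed signals the difference was -43.4 points.

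The genes of the histone-binding subunits, *RBBP4* and *RBBP7*, both had promoter peaks that were listed for MP2_NTC alone. *RBBP4* lies on chromosome 1 as *HDAC1* does, 317.6 kb away, at chr1:32651208-32686211 on the plus strand. Upstream of it, both lines had a peak with nearly the same ends, at chr1:32650505-32651034 in MP2_HDAC1_OE, with a signal of 82.5 at the 90.0 percentile, and at chr1:32650508-32651034 in MP2_NTC, with a signal of 147 at the 99.3 percentile. The MP2_NTC value was the highest percentile of any peak of the 10 genes. MP2_HDAC1_OE had another peak in this region, at chr1:32650256-32650582, with a signal of 56.8 at the 67.5 percentile. This site is also the promoter of *ZBTB8OS*, a gene that runs the other way and encodes a protein linked to tRNA ligation, and the lists cannot assign it to one of the pair.

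MP2_NTC had a second *RBBP4* peak at chr1:32651250-32651707, 198 bp inside the gene, with a signal of 79.6, a percentile of 84.5 and a score of 1000, and MP2_HDAC1_OE had none there. The rank difference at the *RBBP4* promoter was -9.30 points, near the lower quartile of all 5905 genes, also -9.30. With summed signals it was -20.8 points. Near the 3′ end of the window MP2_HDAC1_OE had a unique peak at chr1:32702330-32703149, at the start of *SYNC*, which encodes the intermediate filament protein syncoilin, with a signal of 35.6 at the 28.4 percentile.

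*RBBP7*, at chrX:16844341-16870362 on the minus strand, had 2 promoter sites whose ranks ran in opposite directions. Inside the gene, in a region of both lines, MP2_HDAC1_OE had a peak at chrX:16869958-16870317 with a signal of 59.3 at the 70.9 percentile and a score of 1000. MP2_NTC had a peak over the same stretch, chrX:16869954-16870375, with a signal of 39.1 at the 30.7 percentile and a score of 687, and a weaker one farther inside with a signal of 22.5 at the 11.1 percentile. At this site MP2_HDAC1_OE ranked 40.3 points higher, and 4.63% of 5766 genes had a difference as high.

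Upstream of *RBBP7*, at chrX:16870782-16871626, 2 peaks were listed for MP2_NTC alone, with signals of 70.6 and 98.2 at percentiles of 77.6 and 93.1, both with a score of 1000. The upstream peaks were the stronger ones in MP2_NTC, so that the difference between the strongest promoter peaks was -22.2 points, and 11.2% of the 5905 genes had one as low. The direction at *RBBP7* thus turned on whether the strongest peaks or the site of both lines were compared. With summed signals the difference was -70.6 points. A further region of both lines lay about 12 kb upstream, at chrX:16882339-16883621, and reached a signal of 69.1 at the 81.0 percentile in MP2_HDAC1_OE and of 53.2 at the 56.7 percentile in MP2_NTC, a difference of 24.3 points.

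**Figure D3:**
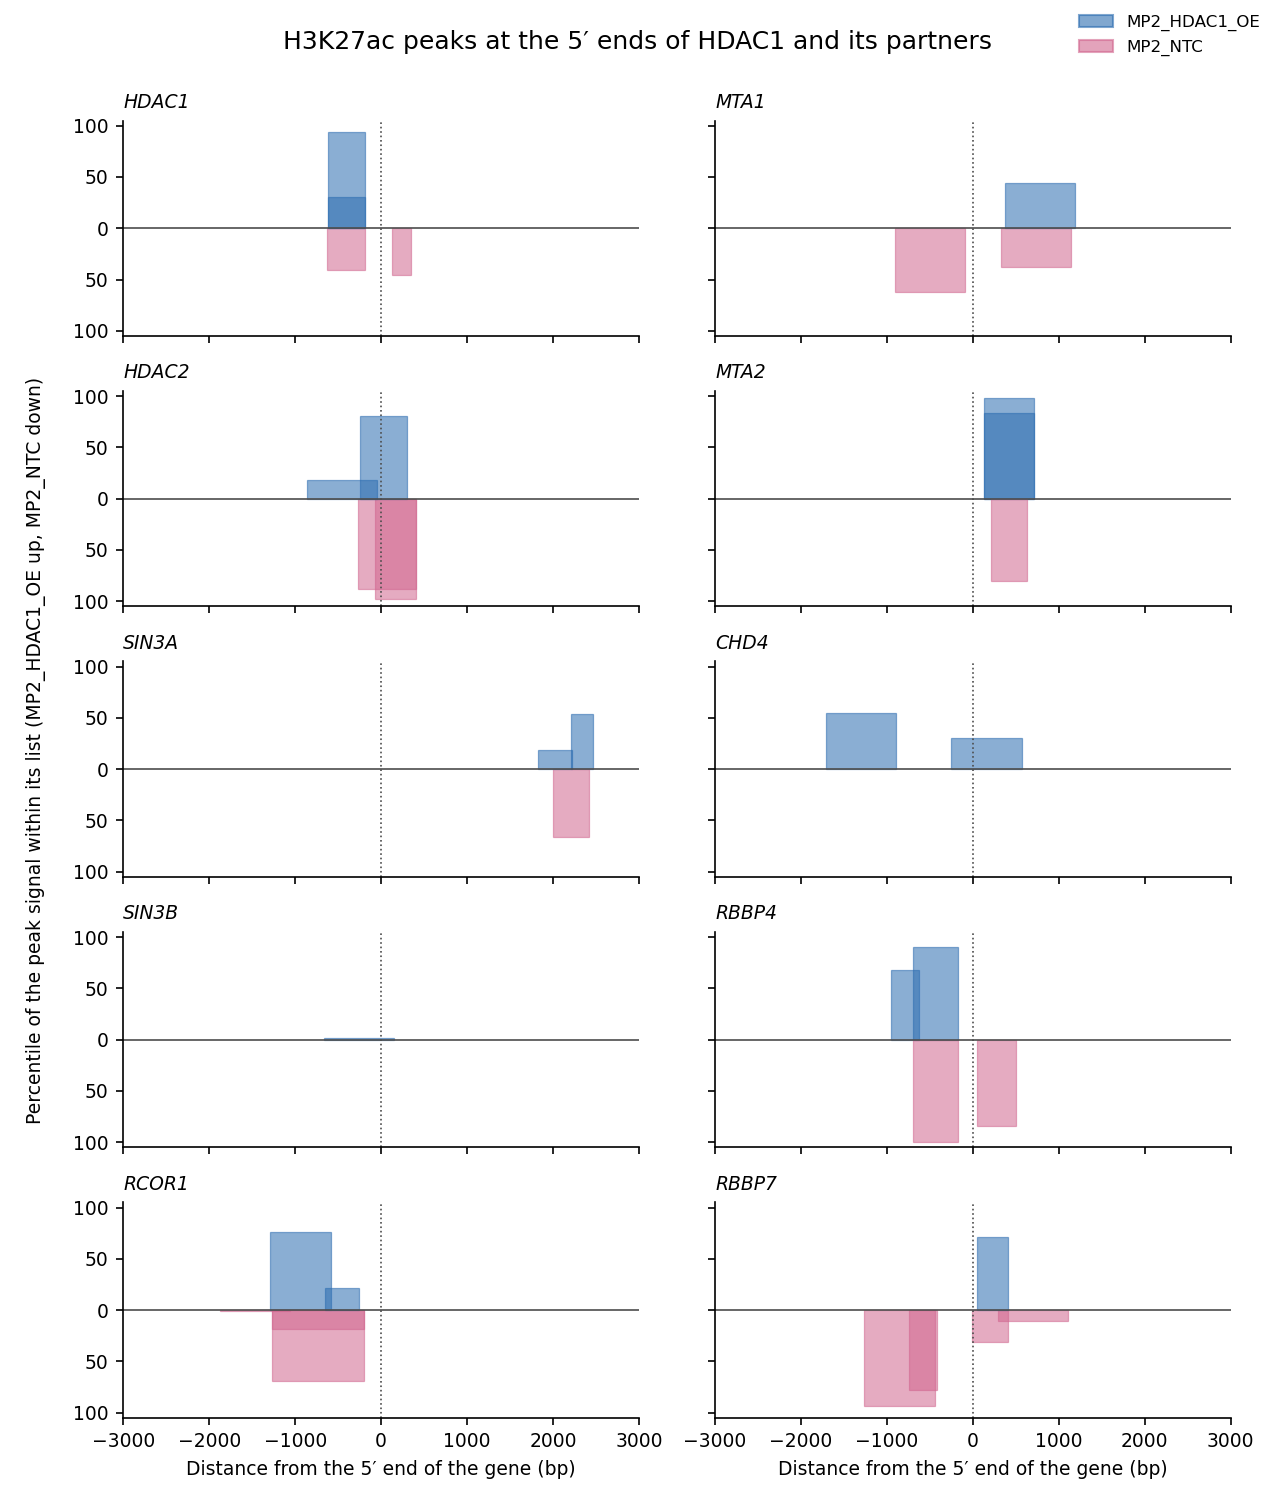
H3K27ac peaks within 3 kb of the 5′ end of each of the 10 genes, by distance in bp along the direction of the gene (x axis, dotted line at the 5′ end), with bar height the percentile of the peak signal within its list, upward for MP2_HDAC1_OE and downward for MP2_NTC. *HDAC1* has a taller bar upstream in MP2_HDAC1_OE (93.9) than in MP2_NTC (40.4), *RBBP4* and *RBBP7* each have bars of MP2_NTC on a side where MP2_HDAC1_OE has none, *CHD4* has bars of MP2_HDAC1_OE alone, and the peaks of *SIN3A* lie past the 1 kb limit inside the gene.

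The scaffold genes of SIN3 had little signal at their 5′ ends. *SIN3A*, at chr15:75369379-75455815 on the minus strand, had no peak of either line in its promoter window. Its peaks lay about 2 kb inside the gene, at chr15:75453346-75453988, upstream of a second start that RefSeq lists for *SIN3A*. There MP2_HDAC1_OE had signals of 48.5 and 27.8 at percentiles of 53.8 and 19.0, and MP2_NTC had a signal of 60.0 at the 66.2 percentile. With every listed start counted, a choice made after the data were seen, the rank difference was -12.4 points. At the far end of the window, the promoter of *MAN2C1*, an alpha-mannosidase gene, reached a signal of 84.4 at the 91.0 percentile in MP2_HDAC1_OE and of 128 at the 98.4 percentile in MP2_NTC.

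*SIN3B*, at chr19:16829398-16880349 on the plus strand, had 1 peak in its whole window. It was a peak of MP2_HDAC1_OE at chr19:16828728-16829547, 260 bp upstream of the 5′ end, with a signal of 12.2 and a score of 693. It stood at the 1.26 percentile, among the weakest peaks of its list.

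*CHD4*, the NuRD remodeller, lies at chr12:6570082-6607379 on the minus strand and had promoter peaks in MP2_HDAC1_OE alone. One, at chr12:6606811-6607630 across the 5′ end, had a signal of 36.9 at the 30.4 percentile and a score of 588. The other, at chr12:6608272-6609091, about 1.3 kb upstream, had a signal of 48.9 at the 54.6 percentile and a score of 761. Both were of middle or low rank, and neither reached a score of 1000. At the other end of the *CHD4* window a region of both lines at the start of *NOP2*, the gene of an rRNA methyltransferase, reached a signal of 72.0 at the 83.4 percentile in MP2_HDAC1_OE and of 82.7 at the 86.3 percentile in MP2_NTC.

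*MTA2*, at chr11:62593214-62601865 on the minus strand, was the partner with the highest promoter rank difference. MP2_HDAC1_OE had a signal of 115 at the 98.5 percentile for a summit 403 bp inside the gene, the highest of its peaks at the 10 genes, and listed the same interval, chr11:62601156-62601733, again with a signal of 72.0 at the 83.4 percentile. MP2_NTC had a peak at chr11:62601241-62601649, with its summit 397 bp inside, a signal of 73.5 and a percentile of 80.0. The difference was 18.4 points, just under the 20 points counted, and 18.2% of the 5905 genes had one as high. With summed signals it was 57.4 points. A region of both lines at the neighbouring *EML3* and *ROM1* promoters ranked 17.0 points higher in MP2_HDAC1_OE, at percentiles of 60.4 and 43.4, and a peak at *EEF1G*, a translation elongation factor gene, was unique to MP2_NTC, with a signal of 46.1 at the 44.2 percentile.

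*MTA1*, at chr14:105419827-105470729 on the plus strand, had the opposite direction. Upstream of the 5′ end, MP2_NTC had a peak at chr14:105418920-105419739 with a signal of 57.3 at the 62.6 percentile and a score of 914, and MP2_HDAC1_OE had none. Inside the gene, near chr14:105420151-105421015, both lines had a peak, with a signal of 43.6 at the 44.2 percentile in MP2_HDAC1_OE and of 42.9 at the 38.1 percentile in MP2_NTC. Between the strongest promoter peaks the difference was -18.4 points, and 14.1% of the 5905 genes had one as low. At the site of both lines it was 6.13 points, and with summed signals it was -37.8 points, so the sign again depended on the upstream peak.

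The *MTA1* window held the most regions of the 10, with 8. Inside the gene a region unique to MP2_NTC, chr14:105447326-105448815, had signals of 12.4 and 15.8 at percentiles of 0.740 and 3.98. At the 3′ end a region unique to MP2_HDAC1_OE, chr14:105470728-105471967, near *CRIP2*, a gene of a LIM domain protein, had signals of 18.9 and 32.1 at percentiles of 8.38 and 23.7. All 4 were weak peaks of their lists. Between *CRIP2* and *CRIP1*, 2 regions of both lines ranked higher in MP2_HDAC1_OE. The one at chr14:105481005-105481750 reached a signal of 81.4 at the 89.4 percentile against 57.0 at the 62.3 percentile in MP2_NTC, and the one at chr14:105482152-105483334 reached 48.7 at the 54.3 percentile against 36.7 at the 26.3 percentile. The regions at *TEDC1*, which encodes a partner of specialised tubulins, differed by -1.91 and -7.91 points.

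*RCOR1*, the CoREST scaffold gene at chr14:102592649-102730561 on the plus strand, had the closest ranks of the partners. All of its peaks lay in 1 region of both lines upstream of the gene, chr14:102590770-102592444. MP2_HDAC1_OE had a signal of 64.2 at the 76.6 percentile for a summit 879 bp upstream and of 29.8 at the 21.2 percentile for one 438 bp upstream. MP2_NTC had nearly the same pair, 62.0 at the 68.7 percentile 892 bp upstream and 29.9 at the 18.5 percentile 435 bp upstream, with a further peak of 12.1 at the 0.408 percentile. The rank difference was 7.86 points, and 34.1% of the 5905 genes had one as high. With summed signals it was -4.89 points.

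Of the 9 partners, 6 had promoter peaks in both lists, and none of the 6 was higher in MP2_HDAC1_OE by 20 points, against 16.3% of the 5905 genes. *RBBP7* was lower by 20 points, against 12.7% of all genes. The median over the 6 was -13.2 points, with 2 above 0 and 4 below, beside the median of 1.25 points over all genes. This direction turned within the same region of both lines, where the median over the 6 was 6.99 points, with 4 above 0 and 2 below. With summed signals 1 was above 0 and 5 below. Of the other 3, *SIN3B* and *CHD4* had promoter peaks of MP2_HDAC1_OE only, as did 12.8% of the 7757 genes with a promoter peak in either list, no partner had promoter peaks of MP2_NTC only, as did 11.1%, and *SIN3A* had no promoter peak. Within the same region of both lines, *HDAC1* and *RBBP7* ranked higher in MP2_HDAC1_OE by 20 points, as did 16.7% of 5766 genes. None of the 7 members with such a promoter region ranked lower by 20 points, as did 13.4% of those genes. The partners with promoter peaks in both lists thus lay on both sides of 0, and without replicates the error of each difference is unknown.

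**Figure D4:**
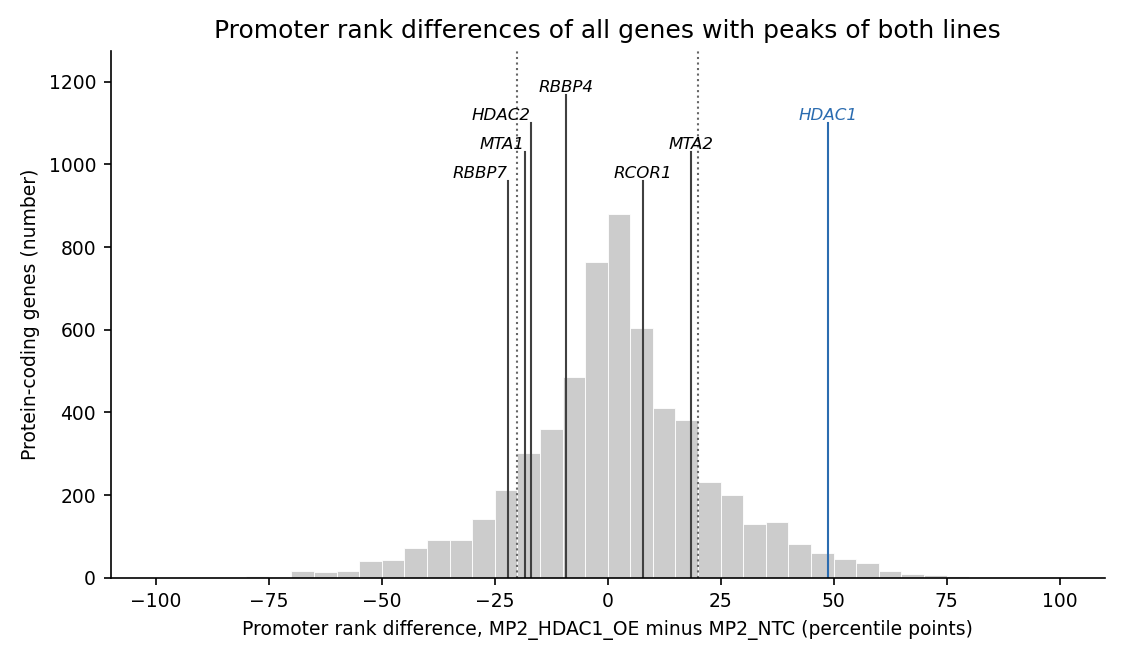
Promoter rank difference of the 5905 protein-coding genes with promoter peaks in both lists (x axis, MP2_HDAC1_OE minus MP2_NTC in percentile points; y axis, number of genes in bins of 5 points), with vertical lines at the 7 of the 10 genes that have one and dotted lines at 20 points either side of 0. *HDAC1*, at 48.7, lies in the right tail, while the 6 partners lie between -22.2 and 18.4, with 4 of them left of the median of 1.25.

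Over the whole windows, the peaks of the 10 genes merged into 30 of the 18678 regions of both lists. Of these, 17 held peaks of both lines, which is 56.7% against 50.7% of all regions. There were 6 regions unique to MP2_HDAC1_OE, 20% against 28.6%, and 7 unique to MP2_NTC, 23.3% against 20.7%. A region unique to MP2_HDAC1_OE lay at 5 of the 10 genes (*HDAC1*, *SIN3B*, *MTA1*, *CHD4* and *RBBP4*), against 41.7% of the 12656 protein-coding genes with a region in such a window. A region unique to MP2_NTC also lay at 5 (*HDAC1*, *MTA1*, *MTA2*, *RBBP4* and *RBBP7*), against 37.1%. *HDAC2*, *SIN3A* and *RCOR1* had none of either kind. These shares lie near those of all genes.

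At the 10 genes, peaks in unique regions of MP2_HDAC1_OE had a median percentile of 26.0 over 8 peaks, against 60.4 over the 31 peaks in regions of both lines. In MP2_NTC the medians were 46.3 over 10 peaks and 55.3 over 29, and the strongest unique peaks were those at the *RBBP4* and *RBBP7* promoters. The same medians were not taken over the whole lists, so whether these gaps are particular to the 10 genes is unknown. Of the 17 regions of both lines, 5 ranked higher in MP2_HDAC1_OE by 20 points and 1 lower, against 19.7% and 14.7% of all 9477 such regions. The 5 were the *HDAC1* promoter, 2 regions near each other past the 3′ end of *MTA1*, and the promoter and upstream regions of *RBBP7*. A score of 1000 was given to 21 of the 39 peaks in MP2_HDAC1_OE, 53.8% against 33.8% of that list, and to 13 of 39 in MP2_NTC, 33.3% against 40.4%. Not every peak belongs to the gene whose window it lies in. In MP2_HDAC1_OE 11 of the 39, and in MP2_NTC 12 of the 39, lay in the promoter of a protein-coding neighbour and not in that of the named gene.

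The other 33 subunits that were looked up in NuRD, SIN3, CoREST and the related MiDAC complex were spread around 0. Promoter peaks of both lines were present at 22, with a median difference of 1.05 points, 14 above 0 and 8 below. The median was 0.28 over 10 SIN3 subunits and 9.54 over 5 CoREST subunits. Among 5 NuRD subunits 3 were above 0 and 2 below, and the 2 MiDAC subunits lay on either side of 0. By 20 points, 3 subunits were higher and 2 were lower, beside the 16.3% and 12.7% of all genes given above. No peak lay in the promoter window of 8 others, 4 more had no listed strand, and 1 had a promoter peak of MP2_HDAC1_OE only. This was *BRMS1*, a SIN3 subunit gene named after its values were seen, where a peak of MP2_NTC overlapped the same region just outside the window and the difference within the region was 34.0 points.

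The 3 higher ones were *ING1*, *ZMYM3* and *KDM1A*. *KDM1A*, the histone demethylase that RCOR1 binds, stood at the 88.6 percentile in MP2_HDAC1_OE, with a signal of 80.0 at chr1:23019351-23020170, and at the 41.7 percentile in MP2_NTC, with a signal of 44.9 at chr1:23019647-23019967. Its difference of 46.9 points was close to that of *HDAC1*, while *RCOR1* itself differed by 7.86 points. *ZMYM3*, a zinc finger gene linked to CoREST, stood at 78.4 in MP2_HDAC1_OE and 28.0 in MP2_NTC. *ING1*, which encodes a SIN3 subunit that reads methylated histone H3, stood at 71.1 and 17.5. With every listed start counted, the difference was 17.5 points at *ING1* and 13.9 at *ZMYM3*, and neither was then past 20 points. Counted that way, *CHD3*, a NuRD gene named after its values were seen, was higher by 24.8 points. *PHF21A*, a CoREST gene, then differed by -20.2 points, past 20 points on the lower side.

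The lower ones were *MTA3*, a paralogue of *MTA1* and *MTA2*, and *TRERF1*, of the MiDAC complex. *MTA3* stood at the 29.9 percentile in MP2_HDAC1_OE, with a signal of 36.6, and at the 76.3 percentile in MP2_NTC, with a signal of 68.9, at nearly the same position just inside the gene. Its difference of -46.4 points became 10.4 points with summed signals. The MTA genes thus had rank differences of -18.4, 18.4 and -46.4 points in the order *MTA1*, *MTA2*, *MTA3*. *TRERF1* stood at 56.5 and 83.3, a difference of -26.8 points, followed by *SINHCAF*, a SIN3 subunit gene, at -19.6 points. *CDK2AP1*, of NuRD, and *PHF21A*, of CoREST, had only regions unique to MP2_NTC in their promoter windows, with strongest peaks at the 54.9 and 54.0 percentiles. With every listed start counted, MP2_HDAC1_OE had a peak at the 33.8 percentile at *PHF21A* and still none at *CDK2AP1*. Of the 33 genes 31 had a region in the gene or 20 kb either side, and a region unique to MP2_HDAC1_OE lay at 17 and one unique to MP2_NTC at 15, beside 41.7% and 37.1% of the 12656 protein-coding genes with a region there.

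**Figure D5:**
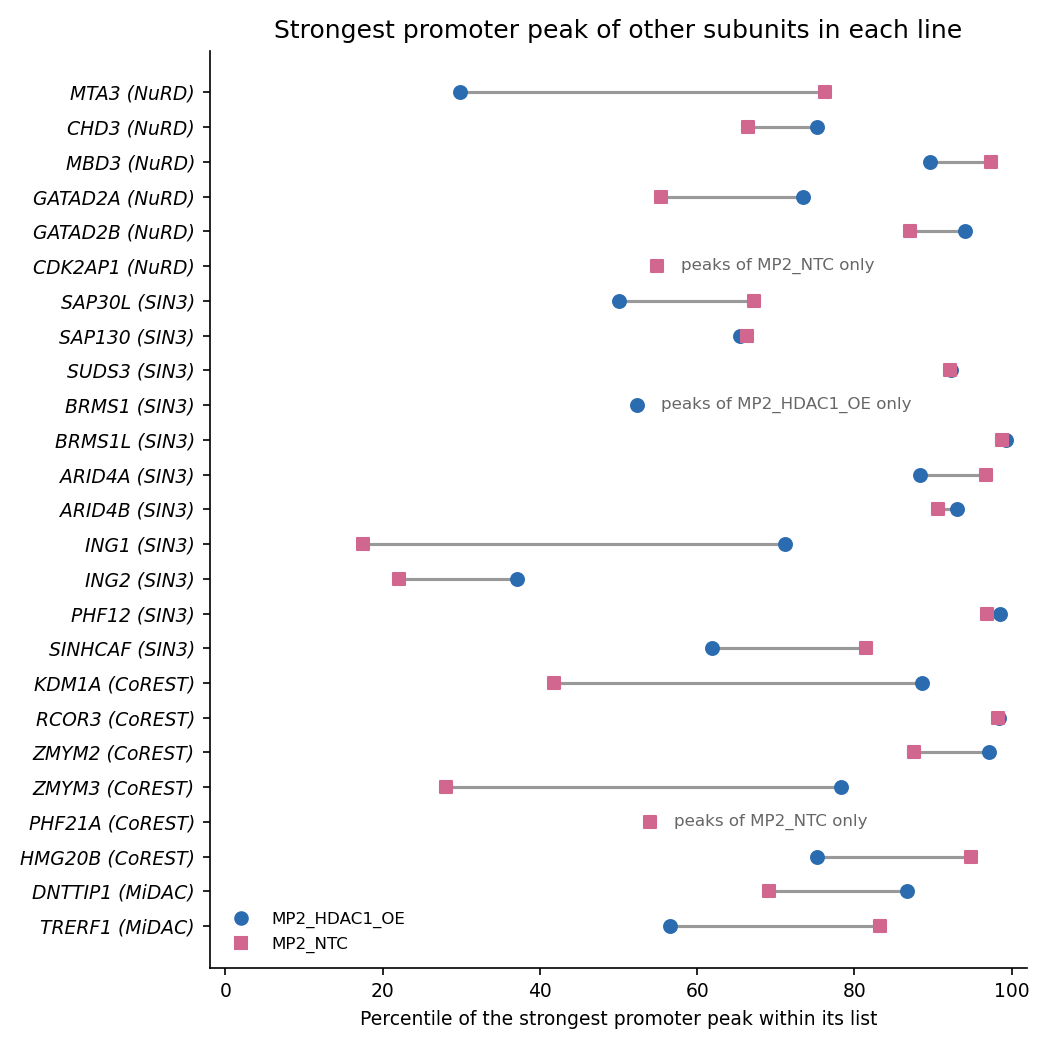
Percentile of the strongest promoter peak of 25 other subunit genes within each list (x axis, percent of peaks in that list with a lower signal), for MP2_HDAC1_OE (circles) and MP2_NTC (squares), with the complex of each gene in brackets. *ING1*, *ZMYM3* and *KDM1A* have long lines to the right in MP2_HDAC1_OE, *MTA3* and *TRERF1* have long lines to the right in MP2_NTC, and most of the others have both marks close together.

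The protein-coding genes whose pair of promoter percentiles lay closest to that of *HDAC1*, by straight-line distance over the 2 lists, were *P4HA2*, *PAFAH1B2* and *B4GALT3*. *P4HA2*, the gene of a collagen prolyl hydroxylase subunit, stood at 95.0 in MP2_HDAC1_OE and 46.4 in MP2_NTC, a distance of 1.64 points. *PAFAH1B2* stood at 94.0 and 43.5, a distance of 1.72 points, and *B4GALT3*, a galactosyltransferase gene, at 94.6 and 47.5, a distance of 2.36 points. None of the 3 is a listed subunit of the complexes, and a rank pair of this kind rests on 1 list per line.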

How the data were processed

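H3K27ac ChIP-sequencing was made in 2 samples per line, beside 2 samples per line without antibody. The authors ran the ENCODE pipeline and deposited 1 list per line, which holds the peaks that passed their reproducibility measure (IDR, optimal set). The submitters' processing notes name hg38, BWA 0.7.12 and Picard 1.88, and the peak caller is not given in the sources used here. The deposited signal is a positive value per peak with unknown scaling, and the deposited score reaches 1000. Summits are as deposited. The lists hold no counts, so depth and the precision it gives are unknown.

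Signals were ranked within each list and peaks were merged into regions where they shared 1 bp. Gene positions came from RefSeq (GRCh38.p14), and strands from its promoter table, for 15812 of 19974 protein-coding genes. The genes named are the 10 members, up to 3 other subunits with the largest rank difference in each direction and any whose only promoter regions are unique to 1 line, neighbours at a described peak, and the 3 genes closest to *HDAC1*. Members, lists and rules were chosen with earlier results of these data known. No test was run, because each line has 1 list. Alternatives changed the window, overlap, threshold, list length and summary of the promoter. *HDAC1* binding, read coverage and RNA-sequencing were not analysed here. The steps were tested on simulated data. Python 3.11.15, numpy 2.4.6, pandas 2.3.3 and matplotlib 3.10.9 were used.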

Additional observations from a re-analysis of the deposited data

How the results depend on the processing

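No paired analysis was possible because a line has a single pooled list, which also leaves no replicate to omit. Signs of the 7 members with promoter peaks in both lists held in all alternatives but summed signals for *RCOR1* (-4.89 points) and the same region for *MTA1* (6.13 points) and *RBBP7* (40.3 points). The *HDAC1* difference was 48.7 points, 23.5 with summed signals and 53.5 at the same region. Members higher by 20 points numbered 1, and 2 with summed signals, with a log2 ratio past 1.5-fold, at 10 points or at the same region. Members lower numbered 1, and 4 with summed signals, 3 with the log2 ratio or at 10 points, 0 at the same region and 2 with equal numbers of peaks. Other subunits higher numbered 3, and 7 with summed signals, 6 at 10 points and 5 at the same region. Those lower numbered 2, and 5 at 10 points or with equal numbers of peaks. *MTA3* turned to 10.4 points with summed signals, and *SINHCAF*, not called, to 17.8 points. Over all genes 16.3% were higher and 12.7% lower, and 23.7% and 23.2% with summed signals, 10.1% and 11.0% with the log2 ratio, 29.7% and 23.9% at 10 points, 16.7% and 13.4% at the same region, and 14.3% and 16.2% with equal numbers of peaks.

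Members with a region unique to MP2_HDAC1_OE numbered 5, and 2 in the promoter window alone, 8 with an overlap of 50% of both peaks and 3 with the top 75% of peaks. Those with one unique to MP2_NTC numbered 5, and 3 within the gene alone, 8 with the 50% overlap and 3 with gaps of up to 500 bp merged. For other subunits the 17 unique to MP2_HDAC1_OE became 9 within the gene alone, 6 in the promoter window alone and 25 with the 50% overlap. The 15 unique to MP2_NTC became 6 in the promoter window and 25 with the 50% overlap. Narrower windows and stricter lists hold fewer regions by construction. The 50% overlap classes each peak by itself, so by construction it can only keep or raise the counts of unique calls. Merging gaps can join a unique region to one with peaks of the other line. The cause of the other shifts was not tested. Counting every listed start was chosen after seeing the data.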
